A study of Mus musculus with 8 samples.

Results

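The transcripts of 46 genes for extracellular matrix proteins were followed in the corpus callosum, the white matter tract between the cerebral hemispheres, of mice fed cuprizone. Cuprizone binds copper and, given in the diet, injures oligodendrocytes, the cells that form myelin. The 46 genes were chosen by name, as tenascins, lecticans with their link proteins, thrombospondins and other matricellular proteins, laminins, collagens, small leucine-rich proteoglycans, basement membrane proteins, fibronectin, a hyaluronan synthase and the protease inhibitor Reck. All 46 had exactly 1 transcript cluster, the unit in which this array sums its probes along a transcript, with that gene as its only symbol, out of 19938 genes with such a cluster. The control group was 4 samples from male wild-type C57BL/6 mice on normal diet, and the cuprizone group was 4 samples from such mice after 1 week of 0.25% cuprizone, all aged 8 weeks per the labels. Each sample gave 1 array, loaded with 150 ng of RNA from tissue dissected by hand after perfusion. The labels call the samples biological replicates and do not say whether tissue was pooled, so p-values measure the spread between these samples. The question of the comparison, by the design and title of the series, is what 1 week of cuprizone does to this tissue while oligodendrocytes degenerate and inflammation begins.

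Brain matrix differs from that of most organs in holding little fibrillar collagen and much hyaluronan. Lecticans (brevican, neurocan, aggrecan and versican) bind hyaluronan at one end and tenascins at the other, and link proteins (Hapln genes) lock the lectican to the hyaluronan chain. The result is the diffuse matrix around neurons, the perineuronal net and the coat of the node of Ranvier. Laminins, type IV collagen, nidogens, perlecan and agrin build the basement membranes of vessels and of the brain surface, whereas fibrillar collagens and the small leucine-rich proteoglycans belong mainly to the meninges and vessel walls. After injury, reactive astrocytes are known to make tenascin C and chondroitin sulphate proteoglycans.

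Most of these genes changed little after 1 week, and the change was concentrated in a few. Tenascin C rose 6.39-fold, thrombospondin 1 rose 1.83-fold and fibronectin rose 1.48-fold, while the link protein gene Hapln2 fell 3.04-fold. Brevican, neurocan, Hapln1, thrombospondin 4 and the laminin subunit Lama2 fell by smaller amounts, and none of the 11 collagens among the 46 passed the test. Of the 46 genes 3 were higher and 6 lower at a limma adjusted p under 0.05. Of the 23410 clusters tested 4.71% were higher and 3.52% lower, 8.22% in all. The number lower was 3 without control replicate 1, where that over all clusters fell from 823 to 618. With a change of at least 1.5-fold required as well, 2 were higher and 2 lower, beside 1.4% and 0.91% of all clusters. The groups did not overlap for 11 of the 46, beside 15.3% of all clusters. The cuprizone arrays lay above the controls for 3 of them, beside 8.24% of all clusters, and below for 8, beside 7.09%. The median log2 fold change over the 46 was -0.04, beside -0.01 over all clusters tested.

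**Figure D1:**
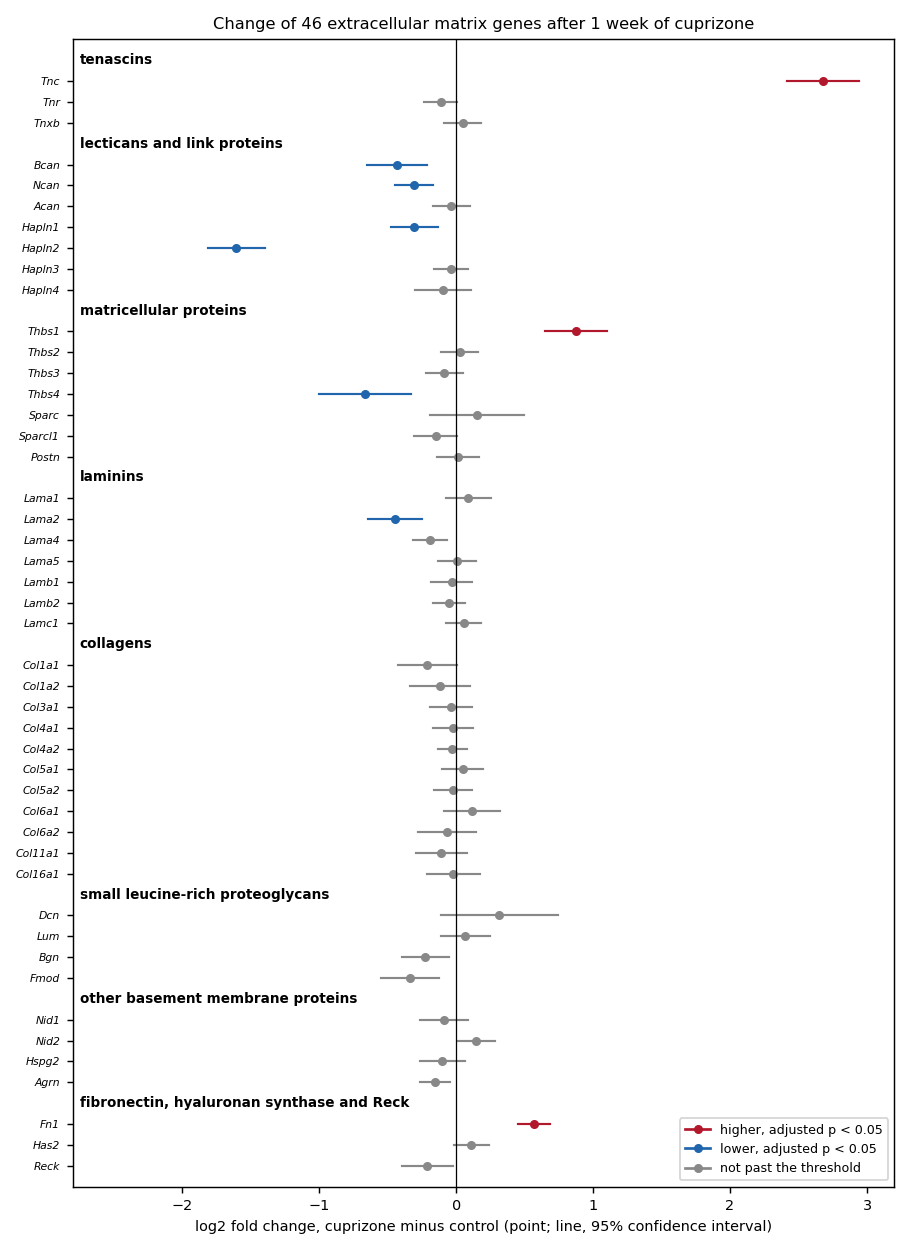
Log2 fold change of each of the 46 matrix genes (point, cuprizone minus control; horizontal axis in log2 units) with its 95% confidence interval from limma (line), grouped by family, with 4 arrays per diet. Tnc at 2.68 and Hapln2 at -1.61 lie farthest from 0, and all 11 collagens lie between -0.21 and 0.11.

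Facts of the whole tissue sample stand beside these values. The marker counts below compare with 4.71% higher and 3.52% lower over all clusters tested. Median log2 levels of the 8 arrays over the tested clusters lay between 7.44 and 7.49. All 9 measured markers of mature oligodendrocytes fell, among them Mog (-3.78 ± 0.18, log2 fold change ± SE), Mal and Ugt8a, and their list mean, relative to the control mean, was -3.05 to -2.13 in the cuprizone group. Of 9 reactive astrocyte markers 7 rose, with the smallest p for Gfap, Serpina3n and Vim, and with a list mean of 1.03 to 1.31 above the control mean, while control replicate 2 stood at 0.34 and the other controls at -0.17 to -0.07. Of 8 general astrocyte markers 3 rose and 3 fell, and of 10 microglial markers 8 rose and none fell, with a list mean of 0.50 to 0.83. Of 8 progenitor markers Olig1 alone fell (-0.50 ± 0.09). No marker passed the threshold among 10 of the endothelium, 12 of neurons, 8 of the choroid plexus or 5 of monocytes and neutrophils, and 1 of 9 for pericytes and smooth muscle (Tagln, 0.44 ± 0.08) and 1 of 12 for fibroblasts (Igfbp2, 0.70 ± 0.14) rose. Of the 4 lists with no call, the endothelial receptor Kdr had the smallest p (-0.24 ± 0.07, limma adjusted p = 0.0671). The neuronal gene Slc17a7 had a control mean of 11.43, so transcripts of neuronal cell bodies were measured in this white matter sample. The choroid plexus list varied within both groups, from -0.62 to 0.65 on the control arrays and from -0.59 to 0.30 on the cuprizone arrays. How much of any matrix change came with these shifts was not tested.

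Tenascins are large glycoproteins with an arm structure that modulate cell adhesion. Tnc encodes tenascin C, which is abundant in the developing brain and returns in wounds. Its level (transcript cluster 10513739, log2 scale) was 6.94, 7.18, 6.69 and 6.92 on control arrays 1 to 4 and 9.68, 9.28, 9.78 and 9.69 on cuprizone arrays 1 to 4. The groups were separated by a wide gap, with control replicate 2 the highest control and cuprizone replicate 2 the lowest cuprizone array. The log2 fold change was 2.68 ± 0.12 (SE, n = 4 each, limma adjusted p = 9.72e-07), and it stayed between 2.60 and 2.79 over the 15 alternatives run.

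Tnr encodes tenascin R, a partner of lecticans made by oligodendrocytes and some neurons. Its levels were 10.17, 10.19, 10.13 and 10.26 in controls and 10.02, 10.10, 10.04 and 10.13 with cuprizone. The groups met at 10.13, and the change of -0.11 ± 0.05 did not pass the threshold (95% confidence interval -0.23 to 0.01, limma adjusted p = 0.274). Tnxb, the tenascin X of connective tissue, differed by 0.05 ± 0.06. Within arrays the change of Tnc exceeded that of Tnr by 2.79 ± 0.15 log2 units. An exact two-sided permutation test of that difference gave p = 0.0286, the smallest that 4 against 4 arrays allow. Adjusted over the 12 gene pairs compared it was 0.0858 and did not pass. A pair at this smallest p can pass only if enough other pairs reach it too, however large its difference. The pairs were chosen with earlier results of these data known.

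The sequence before the annotated start of Tnc is shown because this gene had the largest increase of the group. The 250 bases upstream of the more downstream of 2 starts in RefSeq lie on the minus strand of chr4:64046937-64047186 (GRCm38.p6), and capitals mark a match to the TATA box letters TATANAA.
Tnc: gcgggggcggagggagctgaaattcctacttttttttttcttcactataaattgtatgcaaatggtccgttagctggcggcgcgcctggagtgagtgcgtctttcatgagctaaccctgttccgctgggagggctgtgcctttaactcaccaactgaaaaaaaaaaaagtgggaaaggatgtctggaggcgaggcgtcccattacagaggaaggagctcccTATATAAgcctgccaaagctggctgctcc
The match ends 23 bases before the start. On either strand 10.4% of the 32851 RefSeq windows of this length hold these letters. The letters of an AP-1 site (TGANTCA, in 6.75% of windows), a STAT site (TTCNNNGAA, 7.02%) and a SOX site (ACAAAG, 16.5%) were also searched on both strands, and none is in this window. No match of one motif overlapped another here. The window of the other start, chr4:64047016-64047265, overlaps the one shown and holds none of these motifs, the TATA letters included.

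Of the 7 lectican and link protein genes 4 fell (57.1%, beside 3.52% of all clusters) and none rose, with a family median of -0.31. The calls of Hapln2 and Ncan held in all 15 alternatives, that of Bcan in 11 and that of Hapln1 in 8. The other 3 had log2 fold changes of -0.04 to -0.10. Hapln2 encodes the link protein Bral1, found at nodes of Ranvier in myelinated tracts. Its levels (transcript cluster 10499299) were 8.62, 8.52, 8.55 and 8.62 in controls and 6.99, 7.23, 6.96 and 6.71 with cuprizone. The 4 controls lay close together, and every cuprizone array was more than 1 log2 unit below each of them. The log2 fold change was -1.61 ± 0.09 (limma adjusted p = 3.29e-06). In a bulk sample, fewer cells of the type that makes a transcript and less transcript per cell cannot be told apart, and the markers of mature oligodendrocytes fell on the same arrays.

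Hapln1, the link protein that joins cartilage and perineuronal net aggregates, stood at 7.90, 7.76, 7.95 and 7.97 in controls and 7.45, 7.63, 7.52 and 7.77 with cuprizone. Control replicate 2 and cuprizone replicate 4 overlapped. Its change of -0.31 ± 0.08 passed narrowly (limma adjusted p = 0.0345, and 0.0147 to 0.0987 over the alternatives). The call was lost, with an adjusted p of 0.0524 to 0.0987, when any 1 of control replicates 1, 3 and 4 or cuprizone replicates 1, 2 and 3 was left out. Hapln3 differed by -0.04 ± 0.06 and Hapln4, a partner of brevican, by -0.10 ± 0.09, neither past the threshold. Hapln4 ranged from 8.68 to 8.89 in controls and 8.45 to 8.91 with cuprizone. Within arrays the change of Hapln1 lay 1.30 ± 0.16 above that of Hapln2 (exact permutation p = 0.0286, adjusted over the 12 pairs 0.0858).

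Bcan encodes brevican, a lectican of mature brain made by astrocytes and oligodendrocyte lineage cells. It measured 9.81, 9.61, 9.82 and 9.56 in controls and 9.09, 9.49, 9.37 and 9.13 with cuprizone. All cuprizone arrays were below all controls, with cuprizone replicate 2 closest to them. The change was -0.43 ± 0.10 (limma adjusted p = 0.0215, and 0.00718 to 0.0663 over the alternatives), and without control replicate 1 or 3 or cuprizone replicate 1 or 4 the adjusted p was 0.0599 to 0.0663. Ncan encodes neurocan, a lectican made by neurons and astrocytes. Its levels were 10.61, 10.70, 10.57 and 10.60 in controls and 10.22, 10.36, 10.24 and 10.42 with cuprizone, again without overlap, for a change of -0.31 ± 0.06 (limma adjusted p = 0.0101). This call held in all 15 alternatives. Acan, aggrecan, the lectican of perineuronal nets, ranged from 6.49 to 6.70 in controls and from 6.50 to 6.62 with cuprizone. Its change was -0.04 ± 0.06, with a 95% confidence interval of -0.17 to 0.10. Within arrays the change of Bcan minus that of Acan was -0.39 ± 0.12 (exact permutation p = 0.0286, adjusted 0.0858), and that of Bcan minus Ncan was -0.12 ± 0.14 (exact p = 0.400).

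Each link protein gene lies beside a lectican gene in the RefSeq gene table, with 0 protein-coding genes between them: Bcan and Hapln2 on chromosome 3, Acan and Hapln3 on chromosome 7, Ncan and Hapln4 on chromosome 8, and Vcan and Hapln1 on chromosome 13. Both genes of the first pair fell, neither of the second did, and in the third Ncan alone passed the threshold. In the last pair Hapln1 fell, and Vcan, which encodes versican and is named here after its values were seen, differed by 0.12 ± 0.07 (limma adjusted p = 0.366). The windows upstream of the first pair, which held the largest decrease of the group, are shown for comparison with that of Tnc. Both are on the minus strand, at chr3:88027512-88027761 for Hapln2 and chr3:88000357-88000606 for Bcan (RefSeq, GRCm38.p6).
Hapln2: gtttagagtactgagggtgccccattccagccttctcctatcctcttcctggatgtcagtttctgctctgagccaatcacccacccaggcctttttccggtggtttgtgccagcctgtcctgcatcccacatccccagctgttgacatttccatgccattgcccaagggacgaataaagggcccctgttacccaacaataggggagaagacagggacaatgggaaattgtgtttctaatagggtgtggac
Bcan: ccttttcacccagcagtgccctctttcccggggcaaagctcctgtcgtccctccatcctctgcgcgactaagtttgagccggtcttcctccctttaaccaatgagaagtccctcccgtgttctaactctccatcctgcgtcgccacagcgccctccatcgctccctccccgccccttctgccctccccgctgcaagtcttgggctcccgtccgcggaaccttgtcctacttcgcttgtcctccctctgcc
None of the 4 motifs searched is in either window, which says only that these letters are absent there. Over the 33 members with a window in the table, 37 windows in all, 2 held the TATA letters, 2 the AP-1 letters, 1 the STAT letters and 6 the SOX letters.

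**Figure D2:**
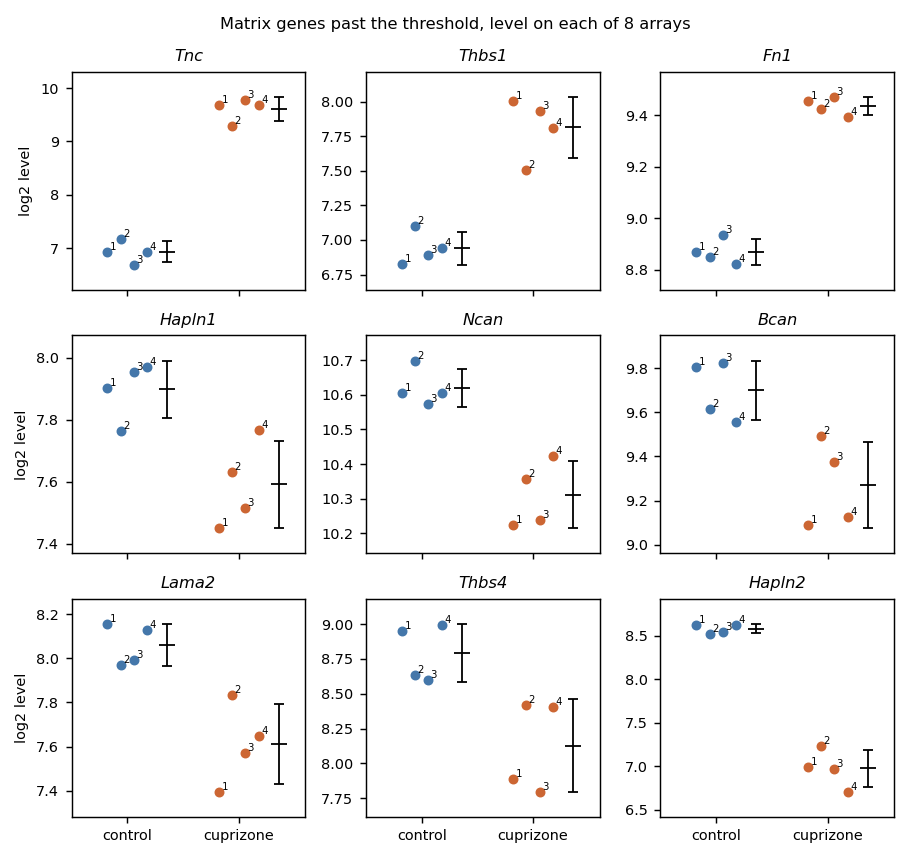
Log2 level of the 9 matrix genes past the threshold on each array (points, numbered by replicate), with the mean and SD of 4 arrays beside each group; vertical axes differ between panels and do not start at 0. The groups overlap only for Hapln1, and cuprizone replicate 2 is the cuprizone array closest to the controls for Tnc, Thbs1, Bcan, Hapln2, Lama2 and Thbs4.

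Thrombospondins are secreted glycoproteins that bind many matrix and cell surface proteins. Of the 4 measured 1 rose (25%, beside 4.71% of all clusters) and 1 fell (25%, beside 3.52%). Thbs1, an activator of latent TGF-beta that astrocytes secrete to promote synapse formation, measured 6.83, 7.10, 6.89 and 6.94 in controls and 8.01, 7.51, 7.93 and 7.81 with cuprizone. Every cuprizone array was higher than every control, and cuprizone replicate 2 was the lowest of them. The change was 0.87 ± 0.10 (transcript cluster 10474700, limma adjusted p = 0.000368). Thbs4, which astrocytes and muscle make, measured 8.95, 8.63, 8.60 and 8.99 in controls and 7.89, 8.42, 7.80 and 8.41 with cuprizone. The groups did not overlap, but both were spread widely, with replicates 1 and 3 low among the cuprizone arrays. The change was -0.67 ± 0.15 (limma adjusted p = 0.0208, and 0.0106 to 0.0663 over the alternatives), and the adjusted p was 0.0595 to 0.0663 without control replicate 1 or 4 or cuprizone replicate 1 or 3. Thbs2 differed by 0.02 ± 0.06 and Thbs3 by -0.09 ± 0.06, neither past the threshold. The change of Thbs1 lay 1.54 ± 0.30 above that of Thbs4 within arrays (exact permutation p = 0.0286, adjusted 0.0858).

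The other matricellular genes did not pass. Sparcl1, or hevin, an astrocyte protein of synapses, measured 12.84, 12.76, 12.88 and 12.77 in controls and 12.59, 12.76, 12.79 and 12.50 with cuprizone, a difference of -0.15 ± 0.07 (limma adjusted p = 0.270). Sparc, its collagen-binding relative, was uneven between arrays. It ranged from 11.00 to 11.36 in controls, and among the cuprizone arrays replicates 2 and 3 stood at 11.51 and 11.64 while replicates 1 and 4 stood at 10.97 and 10.94. The difference of 0.15 ± 0.16 had a 95% confidence interval of -0.19 to 0.49. Postn, periostin, differed by 0.01 ± 0.07. It was dim, with means of 5.64 in controls and 5.66 with cuprizone, at percentile 20 of the tested clusters by level. Whether its signal stood above background was not tested.

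Fn1 encodes fibronectin, the adhesive glycoprotein of plasma and of injured tissue. Its levels (transcript cluster 10355403) were 8.87, 8.85, 8.94 and 8.82 in controls and 9.46, 9.42, 9.47 and 9.39 with cuprizone. The arrays of each group lay close together, with SDs of 0.05 and 0.04, and the groups were clearly apart. The change was 0.57 ± 0.05 (limma adjusted p = 6.31e-05), the third and last increase that passed among the 46 genes. Has2, which polymerises hyaluronan, differed by 0.11 ± 0.06, within the spread of the arrays (limma adjusted p = 0.329). It too was at a low level, with means of 5.76 in controls and 5.87 with cuprizone, at percentile 22.4 of the tested clusters. Reck, a membrane-anchored inhibitor of matrix metalloproteinases, measured 8.50, 8.30, 8.37 and 8.14 in controls and 8.01, 8.24, 8.02 and 8.20 with cuprizone. Control replicate 4 lay among the cuprizone arrays, and the difference of -0.21 ± 0.09 did not pass (limma adjusted p = 0.184).

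Laminins are heterotrimers of an alpha, a beta and a gamma chain. Of the 7 measured chains 1 fell (14.3%, beside 3.52% of all clusters). Lama2, the alpha 2 chain found in vessel basement membranes and needed by oligodendrocytes for myelination, measured 8.15, 7.97, 7.99 and 8.13 in controls and 7.40, 7.83, 7.57 and 7.65 with cuprizone. All cuprizone arrays were lower than all controls, least so replicate 2. The change was -0.45 ± 0.09 (limma adjusted p = 0.00954) and passed in all 15 alternatives. Lama4, the alpha 4 chain of endothelial basement membranes, measured 6.70, 6.78, 6.64 and 6.70 in controls and 6.61, 6.51, 6.50 and 6.45 with cuprizone. These groups did not overlap either, but the difference of -0.19 ± 0.06 missed the threshold (limma adjusted p = 0.0702). The chains that join alpha 2 and alpha 4, Lamb1 (-0.03 ± 0.07), Lamb2 (-0.05 ± 0.05) and Lamc1 (0.06 ± 0.06), did not pass, nor did Lama1 (0.09 ± 0.07) or Lama5 (0.00 ± 0.06). The changes of Lama2 and Lama4 differed by -0.26 ± 0.13 within arrays (exact permutation p = 0.0857, adjusted 0.147).

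None of the 11 collagen genes passed the limma threshold, and 0 of them had an unadjusted p under 0.05, where 20.8% of all clusters did. Their log2 fold changes ran from -0.21 to 0.11 with a median of -0.03, and all their 95% confidence intervals lay between -0.43 and 0.32. Col1a1, a chain of the fibrillar type I collagen, had the smallest p. It measured 8.11, 8.03, 7.93 and 8.28 in controls and 7.90, 8.09, 7.87 and 7.65 with cuprizone, overlapping groups that differed by -0.21 ± 0.10 (limma adjusted p = 0.255). Its partner Col1a2 differed by -0.12 ± 0.10, and the other fibrillar chains Col3a1, Col5a1, Col5a2 and Col11a1 by -0.04, 0.05, -0.02 and -0.11. Cuprizone replicate 4 was the lowest of all 8 arrays for Col1a1, Col1a2, Col3a1, Col5a2 and Col11a1, and also for the nonfibrillar Col4a1 and Col16a1. The mean of the fibrillar chains stood at -0.25 on it, against -0.08 to 0.04 on the other cuprizone arrays. Among the controls, replicate 4 stood apart on the high side, at 0.10 against -0.05 to -0.02. Both chains of the basement membrane collagen IV were nearly level, Col4a1 at -0.03 ± 0.07 and Col4a2 at -0.03 ± 0.05. Of the collagen VI chains of beaded microfilaments, Col6a1 differed by 0.11 ± 0.09 and Col6a2 by -0.07 ± 0.09, and Col16a1, a fibril-associated collagen, by -0.02 ± 0.09.

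Small leucine-rich proteoglycans, which bind collagen fibrils, gave 0 calls among 4 genes, where 8.22% of all clusters were called. Fmod, fibromodulin, came closest at 7.37, 7.31, 7.41 and 7.36 in controls and 7.18, 7.24, 6.87 and 6.80 with cuprizone. The groups did not overlap, with replicates 3 and 4 lowest. The difference was -0.34 ± 0.10 (limma adjusted p = 0.0546, and 0.0174 to 0.147 over the alternatives), and leaving out cuprizone replicate 1 gave 0.0425 and leaving out cuprizone replicate 2 gave 0.0174. It also passed in 4 settings that kept all arrays, at 0.0338 to 0.0399. Bgn, biglycan, differed by -0.22 ± 0.08 (limma adjusted p = 0.118). Dcn, decorin, was uneven with cuprizone, at 8.02, 8.36, 8.96 and 7.90 against 7.87 to 8.23 in controls, a difference of 0.32 ± 0.19. Replicates 2 and 3, the highest for Dcn, were also the highest cuprizone arrays for Sparc. Lum, lumican, which lies beside Dcn on chromosome 10, differed by 0.07 ± 0.08. It was dim, with means of 4.80 in controls and 4.87 with cuprizone, at percentile 11.1 of the tested clusters by level. Whether its signal stood above background was not tested.

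Among the other basement membrane proteins, Agrn, agrin, a heparan sulphate proteoglycan, measured 9.30, 9.29, 9.26 and 9.24 in controls and 9.10, 9.07, 9.17 and 9.12 with cuprizone. No array crossed between the groups, yet the small difference of -0.15 ± 0.05 did not pass (limma adjusted p = 0.0916). Nidogens bridge laminin to collagen IV. Nid1 differed by -0.09 ± 0.08 and Nid2 by 0.15 ± 0.06, and Hspg2, perlecan, by -0.10 ± 0.08, with overlapping groups for all 3.

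**Figure D3:**
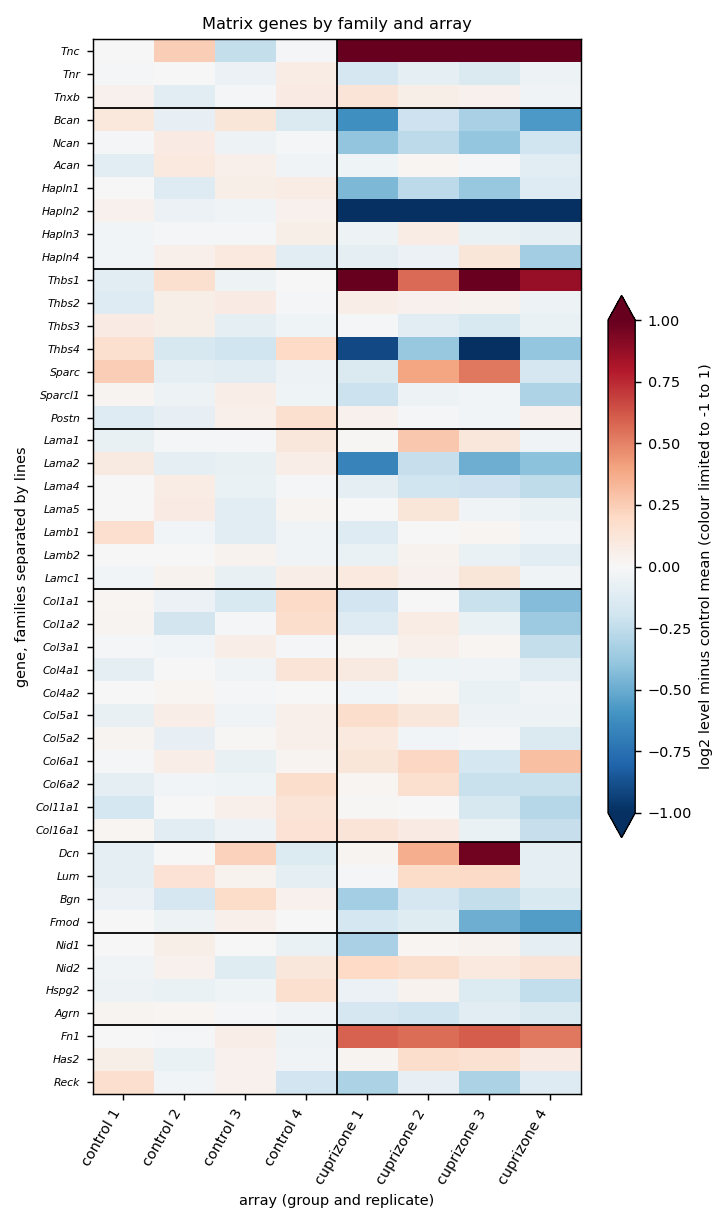
Level of each of the 46 matrix genes on each of the 8 arrays as the log2 level minus the control mean of that gene (colour, limited to -1 to 1), in the order of the families. Tnc, Thbs1 and Fn1 are red and Hapln2 is blue on all 4 cuprizone arrays, while the collagen rows are pale. Cuprizone replicate 4 is the lowest array for Col1a1, Col1a2, Col3a1, Col4a1, Col5a2, Col11a1 and Col16a1.

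Receptors, enzymes and further matrix genes were taken from 5 lists of gene names. Their counts are given beside the shares of all clusters tested, 4.71% higher and 3.52% lower. Of 30 matrix receptors 5 rose (16.7%) and 3 fell (10%), with a median of 0.05. Cd44, the hyaluronan receptor, rose 3.78-fold (1.92 ± 0.17), and Sdc4, a heparan sulphate proteoglycan of adhesion sites that binds fibronectin (0.34 ± 0.05), and the laminin-binding integrin subunit Itga6 (0.39 ± 0.07) rose as well. Itgb4, the usual partner of Itga6 in epithelia, fell by 0.73 on the log2 scale. Cd44 is also 1 of the 7 reactive astrocyte markers that rose.

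Of 22 matrix proteases and inhibitors 3 rose (13.6%, beside 4.71% of all clusters) and 2 fell (9.09%, beside 3.52%), with a median of -0.01. Adamts1 and Adamts4 both cleave lecticans. Adamts1 rose from 7.65 to 9.43 (1.78 ± 0.08, limma adjusted p = 9.72e-07), and Adamts4, a gene of mature oligodendrocytes, fell from 8.97 to 7.37 (-1.60 ± 0.10, limma adjusted p = 4.72e-06). The metalloproteinase inhibitors Timp1 (0.78 ± 0.12) and Timp3 (0.44 ± 0.08) rose. Timp1 is likewise counted among the reactive astrocyte markers.

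Of 18 genes of collagen and hyaluronan processing 3 rose (16.7%, beside 4.71% of all clusters) and 1 fell (5.56%, beside 3.52%). Their median was 0.06. The collagen lysyl hydroxylase Plod1 fell (-0.47 ± 0.09). Plod3 (0.27 ± 0.06), Ugdh, which makes the UDP-glucuronate of hyaluronan (0.23 ± 0.06), and the collagen chaperone Serpinh1 (0.34 ± 0.08) rose by small amounts. The adjusted p of Plod3 was 0.0126, with 0.00696 to 0.0519 over the alternatives. The adjusted p of Ugdh was 0.0263, with 0.0130 to 0.0774 over the alternatives, and 0.0508 to 0.0774 when any 1 array but control replicate 1 or cuprizone replicate 2 was left out. That of Serpinh1 was 0.0278, over a range of 0.0176 to 0.0837, and 0.0531 to 0.0837 without control replicate 1 or 3 or cuprizone replicate 1, 2 or 3. Among 25 enzymes of glycosaminoglycan synthesis, with a median of -0.03, none rose and 1 fell (4%, near the 3.52% of all clusters). It was B3galt6, a linkage region galactosyltransferase (-0.27 ± 0.07), with a limma adjusted p of 0.0358 over a range of 0.0158 to 0.102, and 0.0681 to 0.102 when any 1 array but control replicate 2 or cuprizone replicate 2 was left out.

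Of 59 further matrix genes 4 rose (6.78%) and 3 fell (5.08%), near the shares of all clusters (4.71% and 3.52%). Their median was -0.02. Tgfbi, a TGF-beta-induced adhesion protein, rose 2.29-fold (1.19 ± 0.11), and Ccn1, a matricellular protein induced by growth factors, rose by 0.48 ± 0.10. Cspg5, neuroglycan C (-0.37 ± 0.06), and the laminin chain Lama3 (-0.33 ± 0.06) fell. The third decrease, named after its values were seen, was the collagen gene Col12a1 (-0.24 ± 0.07, limma adjusted p = 0.0496, with 0.0205 to 0.133 over the alternatives). Its adjusted p was 0.0566 to 0.133 when any 1 array but cuprizone replicate 4 was left out.

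**Figure D4:**
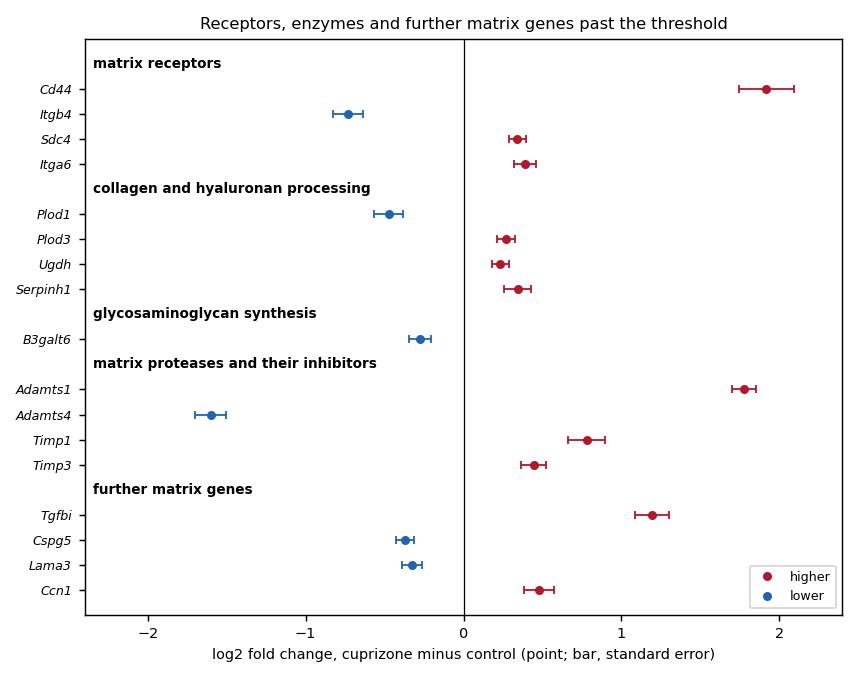
Log2 fold change (point, cuprizone minus control) with its standard error (bar) for up to 4 genes past the threshold with the smallest p in each of the 5 lists of receptors, enzymes and further matrix genes, n = 4 arrays per diet. Cd44 at 1.92 and Adamts1 at 1.78 lie highest and Adamts4 at -1.60 lowest.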

How the data were processed

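Total RNA from 8 corpus callosum samples was hybridised to Affymetrix Mouse Gene 1.0 ST arrays, per the labels' protocols. The deposited values are log2 levels of 28944 transcript clusters, and the submitters' processing notes name Affymetrix Expression Console, RMA and Transcriptome Analysis Console without versions. RMA, as published, gives the arrays nearly 1 distribution, which hides a shift common to most transcripts and compresses large folds. Detection calls and scan dates were not used here, so signal over background and batches were not tested, and the number of arrays limits the precision.

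Clusters were named through the platform annotation, and the 23410 with at least 1 symbol were tested with limma 3.58.1 (R 4.3.3), 4 cuprizone against 4 control arrays, two-sided, with no covariate. Benjamini-Hochberg adjustment ran over all tested clusters, with 0.05 as the threshold. Errors after ± are standard errors, except SDs where named. Gene pairs were tested by exact permutation over the 70 assignments of the arrays, with standard errors from both groups' variances. The members, lists and pairs were chosen with earlier results of these data known. Named genes were all members, up to 4 called genes of each pathway list and up to 3 of each marker list, by smallest p. Of 267 list entries 254 had a single-symbol cluster, and the rest were not analysed here. Upstream windows were taken from the RefSeq table of GRCm38.p6. The fit was tested on simulated data for this comparison (23410 clusters). It recovered 53 of 67 clusters changed 1.5-fold, 66 of 67 changed 2-fold and 65 of 66 changed 4-fold, with 7 false calls, and made 0 calls where nothing was changed. The simulated noise was normal and independent between clusters, and far fewer clusters were changed than the 1925 called in the data. These rates may therefore not hold for the data. The 15 alternatives were each of the 8 arrays left out, a replicate block, an intensity trend with robust prior, repeated quantile normalization, median centring, a filter on dim clusters, all clusters tested, and array quality weights.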

Additional observations from a re-analysis of the deposited data

Results flagged for a closer look

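In 4 of 92 checked sets of 4 arrays, 1 array stood far from the others by Dixon's criterion, which chance meets in about 1 of 20 such sets. For Sparc, control replicate 1 measured 11.36 and the other controls 11.00 to 11.06. Col3a1 measured 7.10 on control replicate 3, against 7.01 to 7.02, and 6.80 on cuprizone replicate 4, against 7.05 to 7.09. Hspg2 measured 7.65 on control replicate 4, against 7.43 to 7.45. None of these 3 genes passed the threshold.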

How the results depend on the processing

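Of 688 member values under the alternatives 663 kept their side of the threshold, 15 lost the call and 10 gained it. No called member changed sign, and 8 members that were not called did in at least 1 alternative. The calls of Tnc, Thbs1, Fn1, Hapln2, Ncan and Lama2 held in every alternative run. The number of higher members was 3 in every leave-one-out fit, and that of lower members 3 to 6, the lowest without control replicate 1. Calls over all clusters moved too, from 1102 higher and 823 lower as reported to 795 to 1122 higher and 609 to 741 lower in these fits. With all arrays kept, the lower members numbered 9 after repeated quantile normalization, 8 after median centring, 8 without dim clusters and 7 with an intensity trend and robust prior. In the same order, the lower calls over all clusters rose to 934, 890, 958 and 963. With at least 1.5-fold required, 2 members were lower, beside 0.91% of all clusters. The median over the members ran from -0.0708 (without cuprizone replicate 2) to -0.0160 (without cuprizone replicate 4) when 1 array was left out, and was -0.0586 without cuprizone replicate 1. Lama4 passed after quantile normalization once more (adjusted p = 0.0382), after median centring (0.0490) and without dim clusters (0.0475), over a range of 0.0382 to 0.183. Fmod passed with the trend and robust prior (0.0382), after quantile normalization (0.0339), after median centring (0.0338) and without dim clusters (0.0399), over a range of 0.0174 to 0.147. Agrn passed after quantile normalization alone (0.0495, over a range of 0.0495 to 0.196). Over all tested clusters the deviations of same-numbered arrays were weakly correlated at most (-0.19, -0.02, 0.21 and -0.06). The choroid plexus list, however, was low on replicates 1 and 3 and high on replicates 2 and 4 in both groups. It stood at -0.35, 0.31, -0.62 and 0.65 on control arrays 1 to 4 and at -0.59, 0.30, -0.47 and 0.11 on cuprizone arrays 1 to 4. Whether the numbers pair the samples cannot be told from these values. With a replicate block 3 members were higher and 5 lower, where 892 of all clusters were higher and 636 lower. Hapln1 then had a limma adjusted p of 0.0538. Among the other named genes the block gave adjusted p of 0.0519 for Plod3, 0.0666 for Ugdh, 0.0749 for Serpinh1, 0.101 for B3galt6 and 0.0598 for Col12a1. No gene had a further single-symbol cluster, so that alternative gave no value.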
